A study of Mus musculus with 36 samples.

Results

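The comparison described here set peritoneal macrophages of the early stage of atherosclerosis against those of baseline. It rests on 8 of the 36 libraries of the series, chosen by their labels: 4 labelled as early and 4 labelled as baseline, all from macrophages washed out of the peritoneal cavity and then sorted by flow cytometry. All mice carried the Apoe knockout, which the labels write as Apoe ko and which removes apolipoprotein E, a ligand for the clearance of cholesterol-rich lipoproteins, so the baseline mice carry the deletion as well. Baseline mice ate chow, early mice had been fed a high cholesterol diet for 1 month, and the 4 advanced peritoneal libraries, given below as further values, came after 6 months of that diet. The study asks how gene regulation in monocytes and macrophages shifts while atheroma forms and grows. The labels give no age, sex or sorting markers and leave unsaid whether each library of a stage came from its own mouse or mice, so the p-values speak only of the spread between these samples. Fed duration and any difference in age between stages cannot be told apart.

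Macrophages of the resting mouse peritoneum are of 2 kinds. Large peritoneal macrophages are long-lived residents that depend on the transcription factor GATA6 and carry TIM4 (Timd4), ICAM2 and high F4/80 (Adgre1). Small peritoneal macrophages are replaced from blood monocytes and carry the chemokine receptor CCR2, the transcription factor IRF4 and MHC class II, which presents antigen to T cells. Macrophages take up modified lipoproteins and debris through scavenger receptors such as MARCO and stabilin 1 (Stab1). Within minutes of a stimulus they transcribe immediate-early genes such as Fos, Jun and Egr1, and NF-kB then drives chemokines such as Ccl2 and Cxcl1, which call in monocytes and neutrophils.

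The 4 early libraries were not alike, and this precedes every result. Early 1 and 2 were singled out beforehand because they carry transcripts of small peritoneal macrophages. That such transcripts are high in these 2, or fail to pass without them, is therefore no separate result. Early 1 and 2 stood apart from early 3 and 4: the Spearman correlation of log2 counts across genes was 0.969 between early 3 and 4, 0.902 between early 1 and 2, and 0.881 to 0.911 between the pairs, against 0.970 to 0.990 among the baseline libraries and 0.957 to 0.970 between these and early 3 or 4. The baseline libraries were also the deeper ones, with 11.4 ± 2.21 M counts (SD, n = 4) against 1.95 ± 0.514 M counts (SD, n = 4) in the early libraries, and the ranges of 9.25 to 14.3 M and 1.31 to 2.56 M did not meet. A floor of 3 counts lay at 0.21 to 0.32 CPM (a gene's count divided by the library total in M counts) at baseline and 1.17 to 2.29 CPM in the early libraries. Levels below are CPM. Apoe itself stood at 6.34, 5.40, 7.83 and 6.71 CPM at baseline and 108, 19.5, 7.62 and 9.54 CPM in early 1 to 4. Which part of the gene is deleted is not stated, so these reads do not test the genotype. Early 1 held the highest value, and the test did not pass (log2 fold change 2.47 ± 0.60, edgeR adjusted p = 0.0501).

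The libraries carried the transcripts of the labelled cell type. Gata6 stood at 168, 157, 169.7 and 181 CPM at baseline and 129, 71.9, 206 and 194 CPM in early 1 to 4, overlapping between stages. Adgre1 stood at 2004, 1958, 2056 and 1505 CPM at baseline and 734, 605, 1869 and 1812 CPM in the early libraries, so early 1 and 2 lay below every baseline library and early 3 and 4 within their range. Summed over 22 markers of large peritoneal macrophages, the level was 85162 to 94488 CPM at baseline and 47289.8, 42551, 100918 and 82829 CPM in early 1 to 4. Fn1, which encodes fibronectin, made up much of this sum, with 51885 to 59361 CPM at baseline. In bulk RNA, fewer cells of a type and less RNA per cell cannot be told apart. Defining markers of mesothelium (Msln, Upk3b, Wt1), fibroblasts (Pdgfra, Mfap5, Dpt), adipocytes (Adipoq) and red cells (Hba-a1, Hbb-bs) were at 0 in all 12 peritoneal libraries. The mesothelial marker sum was 2.93 to 3.92 CPM at baseline and 18.5, 1.95, 3.05 and 2.65 CPM in early 1 to 4, with Krt8 at 12.1 CPM in early 1. The fibroblast sum was 0.0699 to 0.324 CPM at baseline and 0 in the early libraries. Fabp4 of the adipocyte list, which macrophages also express, stood at 174 to 297 CPM at baseline and 154, 74.7, 245 and 342 CPM early. Pf4 of the platelet list stood at 471 to 718 CPM at baseline and 215, 170.4, 495 and 621 CPM early, so early 1 and 2 were low in both. The sums for 10 neutrophil and 10 B cell markers found in the files, in the early libraries were 162 to 309 and 145 to 177 CPM, against 255 to 318 and 96.9 to 174 CPM at baseline. Csf3r alone made up most of the neutrophil sum, with 246 to 291 CPM at baseline and 117 to 292 CPM early. S100a8 stood at 0.769 to 2.81 CPM at baseline and 1.52 to 7.77 CPM early. Bank1 made up much of the B cell sum, with 93.6 to 113 CPM at baseline and 67.5 to 111 CPM early. T and NK cell markers summed to 0.140 to 3.98 CPM at baseline and 1.52 to 11.2 CPM in the early libraries.

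Of 9575 genes tested with edgeR's quasi-likelihood test in a fit of the 12 peritoneal libraries, 171 changed between baseline and the early stage at a Benjamini-Hochberg adjusted p under 0.05, which is 1.79% of those tested. The higher genes numbered 131 (1.37%) and the lower ones 40 (0.418%), beside a median log2 fold change of 0.02 over all genes tested. When early 1 and 2 were left out, 88 of 9728 genes passed (0.905%), 72 higher (0.74%) and 16 lower (0.164%), and 42 of these were among the 171 with the same direction. Fold changes below are log2, early over baseline, ± standard error, with the adjusted p of that test. The count leaned on single libraries: leaving out baseline 1, 2 or 3 gave 18, 9 and 4 genes, and leaving out early 2, 3 or 4 gave 47, 625 and 516. In a fit of the 8 libraries alone it was 2. At an unadjusted p under 0.05 the main fit held 2023 of the 9575 genes. Of the same 9575 genes, DESeq2 called 683 and limma-voom 382. Counts of this kind for gene lists below are to be read beside these.

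**Figure D1:**
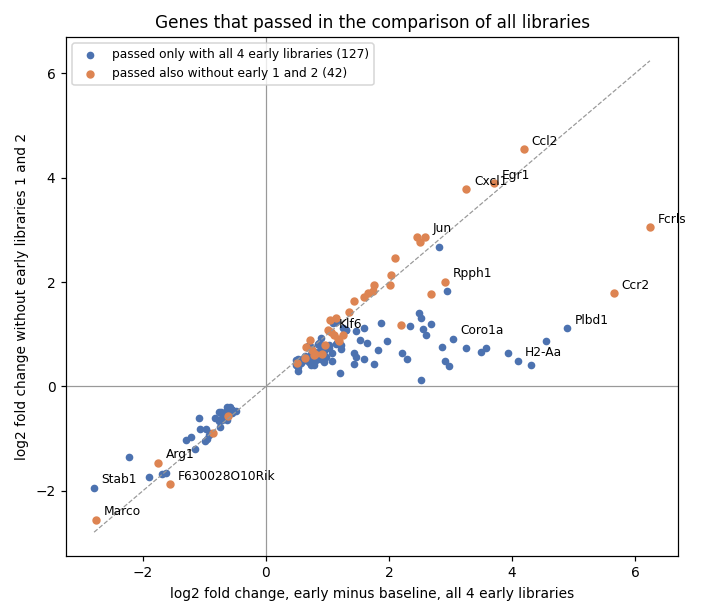
Log2 fold change, early over baseline, with all 4 early libraries (horizontal axis) and without early 1 and 2 (vertical axis), 1 point for each of the 169 called genes tested in both fits. All 169 points have the same sign on both axes, 42 also passed without early 1 and 2, and 127 passed only with all 4.

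A gene that hosts a microRNA fell in all 4 early libraries. F630028O10Rik is a noncoding RNA gene of 3717 bases on the plus strand of chromosome X (chrX:96239926-96243642, GRCm38.p6), and the hairpin of Mir223 (chrX:96242817-96242926) lies within the last exon of both its GENCODE vM21 transcripts, with no gene on the other strand there. miR-223 is abundant in myeloid cells and is known for restraining neutrophil and macrophage activation. Its mature strands, from RefSeq (GRCm38.p6), are shown because the host transcript is the precursor of both. Capitals mark the seed, bases 2 to 8, and the 2 seeds differ.
mmu-miR-223-5p: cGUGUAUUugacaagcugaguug
mmu-miR-223-3p: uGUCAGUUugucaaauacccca
The 5p strand lies at chrX:96242842-96242864 and the 3p strand at chrX:96242884-96242905, both on the plus strand. The host gene stood at 312, 343, 402 and 409.6 CPM at baseline, at 169, 136, 79.2 and 106 CPM in early 1 to 4, and at 331, 285, 274 and 189.9 CPM in the advanced libraries. Every early library lay below every baseline and every advanced library, and early 3 and 4, the libraries closest to baseline by correlation, were the lowest. The means were 367 ± 46.9 CPM (SD, n = 4) at baseline and 123 ± 38.9 CPM (SD, n = 4) early, a log2 fold change of -1.56 ± 0.20 (edgeR adjusted p = 0.00502), or 2.94-fold lower. It was -1.87 without early 1 and 2 (edgeR adjusted p = 0.000406), and -1.58 in the fit of the 8 libraries alone (edgeR adjusted p = 0.0497). The gene was singled out after its values were seen, since the rule for naming genes leaves out predicted symbols. Mir223 itself had 0 counts in the 12 libraries. A polyA label does not settle why, since Rpph1, whose mature form has no polyA tail, stood at 146 to 2702 CPM in them. The Mir223 hairpin lies inside a host exon on the same strand. How reads falling on both genes were assigned was not tested. The 0 therefore does not show whether Mir223 was transcribed, the host count may lack such reads, and the mature strands were not measured.

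The scavenger receptor genes Marco and Stab1 and the hyaluronan receptor gene Lyve1 also fell. Marco (chr1:120474538-120505024, GRCm38), the collagenous scavenger receptor that binds bacteria and modified lipoproteins, stood at 266, 225, 327 and 131 CPM at baseline, 29.1, 32.8, 25.9 and 46.1 CPM in early 1 to 4, and 39.3, 107, 101 and 55.2 CPM in the advanced libraries. The groups did not overlap, and the highest early library was still far under the lowest baseline one. Marco fell 6.79-fold (log2 fold change -2.76 ± 0.32, edgeR adjusted p = 0.00395), with -2.56 without early 1 and 2 (edgeR adjusted p = 0.00908) and -2.79 in the fit of the 8 libraries alone (edgeR adjusted p = 0.00955). Stab1, a clearance receptor that takes up acetylated lipoproteins and dying cells, stood at 436, 371, 367 and 106 CPM at baseline and 8.74, 18.4, 75.4 and 77.3 CPM in early 1 to 4. All early libraries lay lower, with early 1 and 2 lowest and baseline 4 nearest to them. Its log2 fold change was -2.79 ± 0.58 (edgeR adjusted p = 0.0315), and -1.94 without early 1 and 2, where it did not pass (edgeR adjusted p = 0.0812). Lyve1, a hyaluronan receptor of lymphatic endothelium and resident macrophages, stood at 213, 134, 151 and 54.2 CPM at baseline and 50.0, 43.0, 35.8 and 44.0 CPM in the early libraries. These early values were close together and just under that of baseline 4. The log2 fold change was -1.62 ± 0.32 (edgeR adjusted p = 0.0279), and without early 1 and 2 the adjusted p was 0.117.

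Of 16 lipoprotein and scavenger receptor genes tested, Marco and Stab1 fell, 14 did not pass and none rose, with a median log2 fold change of -0.26 against 0.02 over all genes. Cd36, the receptor for oxidised lipoprotein and fatty acids, stood at 758 to 1183 CPM at baseline and 811 to 1111 CPM early (log2 fold change -0.08 ± 0.13, edgeR adjusted p = 0.742). Msr1, scavenger receptor A, stood at 1296 to 1394 CPM and 762 to 1403 CPM (log2 fold change -0.24 ± 0.17, edgeR adjusted p = 0.427). Both sets of libraries overlapped.

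Arg1, the enzyme that turns arginine into ornithine and a mark of alternative activation, stood at 169, 116, 166 and 231 CPM at baseline and 53.9, 31.7, 54.1 and 60.9 CPM in early 1 to 4. The advanced libraries held 56.8, 59.4, 84.4 and 40.2 CPM, so the 8 libraries from mice on the high cholesterol diet all lay below the 4 from mice on chow. Arg1 fell by 1.75 on the log2 scale (-1.75 ± 0.27, edgeR adjusted p = 0.00990), and by 1.47 without early 1 and 2 (-1.47, edgeR adjusted p = 0.0351). Of the 13 alternative activation genes tested, Arg1 fell and Mgl2 rose, and 11 did not pass.

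Several regulators and receptors fell too, each with no overlap between the 4 early and 4 baseline libraries. Etv5, an ETS-family transcription factor, stood at 60.9, 71.8, 45.1 and 37.7 CPM at baseline and 35, 22.3, 22.1 and 26 CPM early (log2 fold change -0.99 ± 0.21, edgeR adjusted p = 0.0317). Pou2f2, the octamer-binding factor OCT2, stood at 45.5, 45.7, 49.6 and 37.7 CPM and then 20.4, 15.6, 27.4 and 20.1 CPM (-1.08 ± 0.24, edgeR adjusted p = 0.0398). Tns1, which links integrins to actin, stood at 90.0, 56.3, 62.2 and 58.6 CPM and then 16.5, 28.9, 21.3 and 38.1 CPM (-1.30 ± 0.24, edgeR adjusted p = 0.0204). Tns1 was back at 61.9 to 93.1 CPM in the advanced libraries, while Etv5 and Pou2f2 were at 23.4 to 28.0 and 10.9 to 26.4 CPM there. Receptors for chemoattractants were in this group: C5ar1, which binds complement C5a, at 261, 307, 268 and 201 CPM and then 162, 141, 181 and 155 CPM (-0.66 ± 0.15, edgeR adjusted p = 0.0403), and Fpr1, which binds formylated peptides, at 49.3, 49.2, 50.9 and 26.3 CPM and then 15.5, 25.4, 13 and 21.2 CPM (-1.16 ± 0.27, edgeR adjusted p = 0.0481). Sufu, an inhibitor of hedgehog signalling (-1.08), Tnfsf12, the cytokine TWEAK (-0.96), Icmt, a methyltransferase of prenylated proteins (-0.91), and Lsm12 (-0.86) completed the 12 lower genes named by size, with edgeR adjusted p from 0.0279 to 0.0474. C5ar1 was named apart from these, as a member of the complement list. Without early 1 and 2, Lsm12 still passed (edgeR adjusted p = 0.0414), and the other members of this paragraph had the same sign and did not pass (edgeR adjusted p from 0.0981 to 0.266).

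**Figure D2:**
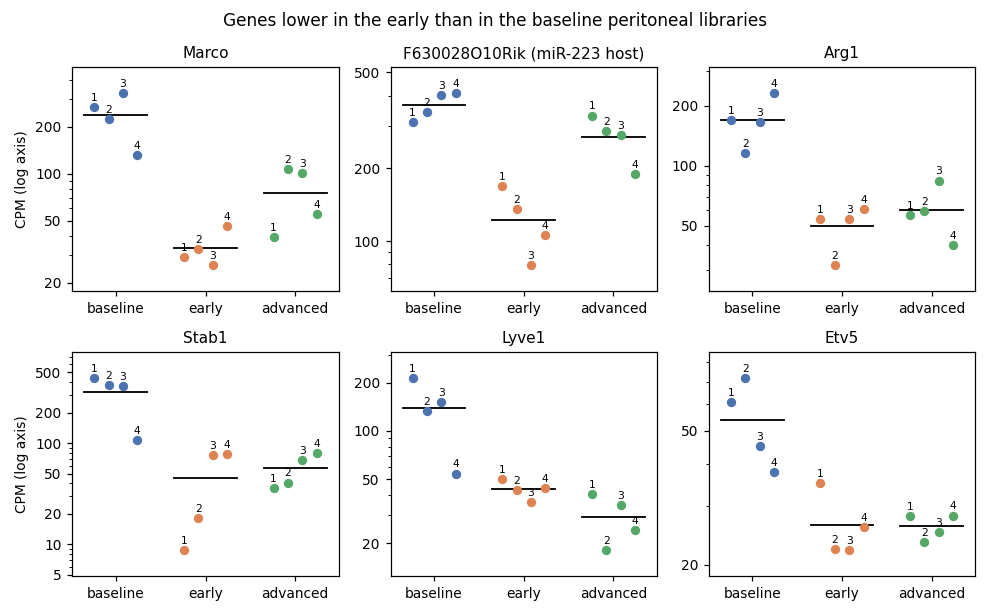
Level of 6 lower genes in each peritoneal library, in CPM on a log axis, by stage; points are numbered by replicate and the black line is the mean of 4. In each panel the 4 early points lie below the 4 baseline points, with Marco at 25.9 to 46.1 CPM against 131 to 327 CPM.

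Leaving out early 1 and 2 brought in further lower genes. Saa3, an acute-phase apolipoprotein and a marker of large peritoneal macrophages, stood at 842, 909, 792 and 933 CPM at baseline and 670.2, 201, 297 and 295 CPM in early 1 to 4. Early 1 was the highest of the early libraries and none reached baseline. Its log2 fold change was -1.23 ± 0.34 with all 4 (edgeR adjusted p = 0.0761) and -1.45 ± 0.31 without early 1 and 2 (edgeR adjusted p = 0.0440). Tox2, a nuclear HMG-box protein, stood at 50.7, 51.1, 56.1 and 41.6 CPM at baseline and 1.94, 3.91, 24.4 and 23.3 CPM early, lowest in early 1 and 2 and lower than baseline in all 4. Its log2 fold change was -1.94 ± 0.48 with all 4 (edgeR adjusted p = 0.0529) and -0.96 ± 0.16 without early 1 and 2 (edgeR adjusted p = 0.00979). Ptafr, the receptor for platelet-activating factor, differed between the pairs, at 51.0 and 94.2 CPM in early 1 and 2 and 21.3 and 21.7 CPM in early 3 and 4, against 43.5 to 64.2 CPM at baseline (-1.25 ± 0.21 without early 1 and 2, edgeR adjusted p = 0.0111).

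Transcripts of small peritoneal macrophages were high in early 1 and 2. Ccr2, the receptor for CCL2, stood at 12.3, 12.3, 7.64 and 11.7 CPM at baseline, 897, 1311, 48.0 and 24.4 CPM in early 1 to 4, and 3.17 to 6.60 CPM in the advanced libraries. Early 1 and 2 were far above the rest, yet early 3 and 4 also exceeded every baseline and advanced library. The log2 fold change was 5.66 ± 0.94 with all 4 (edgeR adjusted p = 0.0132) and 1.78 ± 0.29 without early 1 and 2 (edgeR adjusted p = 0.00908). Fcrls, an Fc receptor-like gene of macrophages, behaved likewise, at 1.86, 1.73, 0.783 and 1.19 CPM at baseline and 61.2, 343, 16.8 and 5.83 CPM in early 1 to 4, with no overlap. Its log2 fold change was 6.24 ± 0.95 (edgeR adjusted p = 0.00990), and 3.05 ± 0.53 without early 1 and 2 (edgeR adjusted p = 0.0142). Of 13 small peritoneal macrophage genes tested, Ccr2, Cd209a and Plac8 rose, 10 did not pass and none fell, with a median log2 fold change of 0.99. Ccr2 alone passed without early 1 and 2, and the median was 0.05. The summed level of the 16 markers was 1208 to 2297 CPM at baseline and 6562, 10617, 1661 and 1876 CPM in early 1 to 4.

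MHC class II transcripts were high in early 1 and 2 and at the baseline level in early 3 and 4. H2-Aa stood at 78.9, 57.3, 132 and 14.8 CPM at baseline and 1253, 3389.8, 108 and 73.6 CPM in early 1 to 4, so early 3 and 4 sat among the baseline libraries. The log2 fold change was 4.09 ± 0.97 with all 4 (edgeR adjusted p = 0.0483) and 0.49 ± 0.58 without early 1 and 2 (edgeR adjusted p = 0.799). Ciita, the transactivator that switches this gene group on, stood at 0.838 to 6.76 CPM at baseline and 49.5, 139, 6.86 and 6.36 CPM early (log2 fold change 3.58 ± 0.79, edgeR adjusted p = 0.0398). H2-Ab1 (4.31), H2-Eb1 (4.56) and H2-DMb1 (2.53), which encode chains of class II molecules and of the peptide loader, each had an edgeR adjusted p of 0.0406. Cd74, the invariant chain, stood at 37.9 to 358 CPM at baseline and 2537, 7843, 261 and 193 CPM early and did not pass (3.85 ± 0.97, edgeR adjusted p = 0.0587). Of the 8 genes tested, 5 rose and all 8 had a positive fold change, with a median of 3.71, and in the fit without early 1 and 2 none had an adjusted p under 0.05 and the median was 0.41. The summed level of all 10 listed genes was 101 to 667 CPM at baseline and 5366, 15448, 533 and 386 CPM in early 1 to 4.

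Other genes shared this split. Cd209a, the mouse DC-SIGN lectin of monocyte-derived cells, stood at 5.38 to 18.7 CPM at baseline and 126, 410.4, 20.6 and 17.0 CPM early (log2 fold change 3.50 ± 0.78, edgeR adjusted p = 0.0403). Coro1a, an actin regulator of leukocytes, stood at 8.94 to 12.9 CPM at baseline and 152, 186, 21.3 and 19.6 CPM early, with no overlap (3.04 ± 0.55, edgeR adjusted p = 0.0195). Plbd1, a phospholipase B-like lysosomal gene, stood at 3.07 to 8.88 CPM at baseline and 176, 573, 15.2 and 11.1 CPM early, again with no overlap (4.90 ± 0.89, edgeR adjusted p = 0.0201). Neither Cd209a, Coro1a nor Plbd1 passed without early 1 and 2 (edgeR adjusted p of 0.719, 0.208 and 0.262). Mgl2, a galactose lectin of alternatively activated cells (3.94, edgeR adjusted p = 0.0333), Id3, an inhibitor of helix-loop-helix factors (3.66, edgeR adjusted p = 0.0272), Skint3 (2.90, edgeR adjusted p = 0.0315) and Cd2 (2.56, edgeR adjusted p = 0.0475) were highest in early 1 and 2 too. Retnla stood at 18.7 to 221 CPM at baseline and 1717, 3759, 200.4 and 212 CPM early (3.36 ± 0.88, edgeR adjusted p = 0.0660), and Lyz1 at 412 to 823 CPM and then 2169, 2454, 569.8 and 749 CPM (1.12 ± 0.37, edgeR adjusted p = 0.115). Both were high in early 1 and 2 alone and did not pass.

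Most markers of large peritoneal macrophages stood lower in the same 2 libraries, and none passed the test over all 4. Timd4, the TIM4 receptor for dying cells, stood at 583, 608, 654 and 636 CPM at baseline and 424, 151, 449 and 420.1 CPM in early 1 to 4 (log2 fold change -0.73 ± 0.27, edgeR adjusted p = 0.152). All 4 early libraries lay below baseline, early 2 furthest. Alox15, a lipoxygenase of resident cells, stood at 5176 to 6982 CPM at baseline and 3631, 1934, 6148 and 5286 CPM early (-0.49 ± 0.28, edgeR adjusted p = 0.330), and Selp, P-selectin, at 878 to 1042 CPM and then 387, 235, 1100.0 and 964 CPM (-0.43 ± 0.37, edgeR adjusted p = 0.526). Of 21 such genes tested none passed with edgeR (5 at an unadjusted p under 0.05, 1 with DESeq2, 1 with limma-voom), 18 had a negative fold change and the median was -0.47. Without early 1 and 2 the median was 0.05 and Saa3 alone passed, lower. Icam2 stood at 326 to 358 CPM at baseline and 349.7, 199, 313 and 309.9 CPM early (-0.19, edgeR adjusted p = 0.538).

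Sums of mast and dendritic cell markers were highest in early 2 among the 8 libraries. Over 12 mast cell markers the sum was 56.4 to 94.7 CPM at baseline and 120.0, 489, 120.4 and 127 CPM in early 1 to 4, and none of the 6 tested passed with edgeR (3 at an unadjusted p under 0.05, 0 with DESeq2). Cpa3, a mast cell protease, stood at 0.349 to 21.0 CPM at baseline and 16.5, 162, 16 and 19.6 CPM early. Over 12 dendritic cell markers the sum was 174 to 579.8 CPM at baseline and 375, 894, 307 and 263 CPM early, and of 3 tested only Cd209a passed. Cd24a made up most of this sum at baseline, with 150 to 570 CPM, and stood at 189, 290, 272 and 236 CPM early. Dpp4 stood at 0.349 to 2.79 CPM at baseline and 22.3, 75.1, 2.29 and 1.59 CPM early. Over 12 monocyte markers the sum was 434 to 1003 CPM and 671, 860.0, 409.8 and 385 CPM, with Ly6c1 at 0 in every peritoneal library and none of 7 passing with edgeR (3 at an unadjusted p under 0.05, 1 with DESeq2). F13a1 made up most of it at baseline, with 222 to 834 CPM. Others moved both ways in early 1 and 2: Spn stood at 31.1 and 49.3 CPM against 2.81 to 7.15 CPM at baseline, and Hp at 40.8 and 14.9 CPM against 58.3 to 73.4 CPM. In the comparison with monocytes below, 4 of 11 monocyte and 4 of 9 dendritic cell markers responded higher and 0 lower, beside 2.27% of all genes higher. The part of the mix of sorted cells in the changes of the genes named above was not tested.

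**Figure D3:**
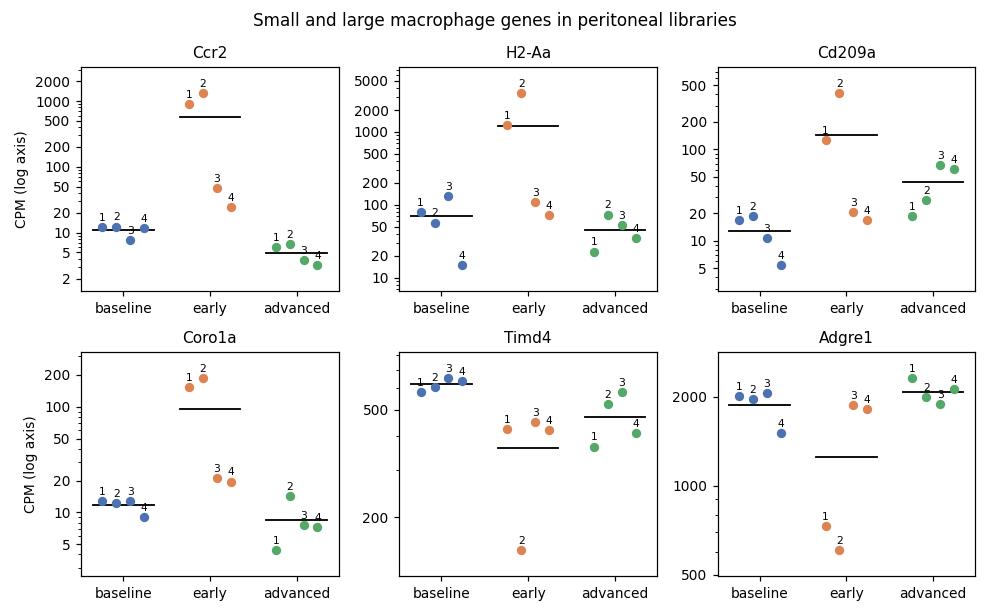
Level of 4 genes that were highest in early 1 and 2 (Ccr2, H2-Aa, Cd209a, Coro1a) and of 2 markers of large peritoneal macrophages (Timd4, Adgre1), in CPM on a log axis, by stage; points are numbered by replicate and the black line is the mean of 4. Early 1 and 2 hold 897 and 1311 CPM of Ccr2 against 48.0 and 24.4 CPM in early 3 and 4, and for Adgre1 the order is turned.

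Immediate-early genes rose, 11 of the 19 tested, and the rise was least in early 1. Klf6, a zinc-finger factor of macrophage activation, stood at 239, 228, 224 and 205 CPM at baseline, 368, 604, 463 and 391 CPM in early 1 to 4, and 206 to 263 CPM in the advanced libraries. All 4 early libraries were above the other 8 peritoneal libraries. The log2 fold change was 1.06 ± 0.14 (edgeR adjusted p = 0.00502), and 1.04 ± 0.11 without early 1 and 2 (edgeR adjusted p = 0.000264). Jun, a subunit of the AP-1 factor, stood at 179.7, 106, 69.2 and 45.3 CPM at baseline, 289, 659, 780.1 and 565 CPM early, and 49.8 to 70.8 CPM in the advanced libraries. The groups did not overlap, and early 1 was the lowest of its group. Jun rose by 2.58 ± 0.37 (edgeR adjusted p = 0.00990). Fos, its partner, stood at 174, 173, 61.9 and 72 CPM at baseline and 109, 799.8, 974 and 650.0 CPM in early 1 to 4. Early 1 fell within the baseline range and the other 3 far above it. The log2 fold change of Fos was 2.45 ± 0.58 (edgeR adjusted p = 0.0494), and 2.87 without early 1 and 2 (edgeR adjusted p = 0.00825).

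Egr1, a growth-response zinc-finger factor, stood at 20.9, 25, 11 and 24.6 CPM at baseline and 50.5, 426, 422 and 154 CPM in early 1 to 4, with no overlap (log2 fold change 3.71 ± 0.58, edgeR adjusted p = 0.0105). Ier2 stood at 99.8, 80.8, 64.6 and 68.7 CPM at baseline and 134, 364, 306 and 216 CPM early, also with no overlap (1.74 ± 0.26, edgeR adjusted p = 0.00990). Junb stood at 169, 151, 85.4 and 94.4 CPM at baseline and 156, 590.3, 575 and 325 CPM early (1.76 ± 0.34, edgeR adjusted p = 0.0272). In the advanced libraries Egr1 held 2.26 to 22.8 CPM, Ier2 51.9 to 90.0 CPM and Junb 75.5 to 117 CPM, near or below baseline. None of the 19 fell, the other risers being Ier5, Jund, Btg2, Atf3 and Fosb, with a median log2 fold change of 1.33 against 0.02 over all genes. Without early 1 and 2, 12 of 21 rose and the median was 1.75. The summed level of the 24 listed genes was 2419.6 to 3515 CPM at baseline, 2955, 7961, 8058 and 5797 CPM in early 1 to 4, and 1597 to 2696 CPM in the advanced libraries. Of the 13 heat shock chaperones tested, Dnajb1 rose (0.86, edgeR adjusted p = 0.0442) and 12 did not pass. Without early 1 and 2 Dnajb1 did not pass (0.79, edgeR adjusted p = 0.180). Handling times between lavage and lysis are not given in the labels, and their part was not tested.

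Of 12 CC and CXC chemokine genes tested, Ccl2 and Cxcl1 rose, none fell and 10 did not pass. Their median log2 fold change was 0.45, with 7 positive and 5 negative, and without early 1 and 2 it was 0.19 with 5 of 13 higher. Tnfaip3 and Nfkbiz, whose proteins regulate NF-kB, rose as well. Ccl2, the ligand of CCR2, stood at 3.98, 1.62, 2.84 and 0.489 CPM at baseline and 5.34, 55.9, 57.9 and 38.1 CPM in early 1 to 4. Early 1 was just above baseline and the other 3 were far above it. Ccl2 rose by 4.19 ± 0.64 (edgeR adjusted p = 0.00990), and by 4.54 ± 0.48 without early 1 and 2 (edgeR adjusted p = 0.000298). Cxcl1, a neutrophil chemokine, stood at 19.5, 17.9, 9.79 and 7.27 CPM at baseline and 3.89, 154, 155 and 187 CPM early, with early 1 below every baseline library. Its log2 fold change was 3.26 ± 0.65 (edgeR adjusted p = 0.0298), and 3.78 ± 0.30 without early 1 and 2 (edgeR adjusted p = 3.26e-05). Tnfaip3, the deubiquitinase A20 that shuts NF-kB signalling down, stood at 22.6, 27.6, 29.5 and 15.5 CPM at baseline and 32.1, 99.3, 47.2 and 40.3 CPM early, with no overlap (1.25 ± 0.28, edgeR adjusted p = 0.0399). Nfkbiz, the nuclear IκB-family protein IκBζ, stood at 89.4, 63.4, 90.1 and 66.3 CPM at baseline and 66.0, 299, 245 and 201 CPM early, with early 1 in the baseline range (1.43 ± 0.32, edgeR adjusted p = 0.0421).

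These 4 were the genes that rose among 14 NF-kB targets tested, and none fell (median log2 fold change 1.06). In early 3 and 4 alone, 7 of 15 rose, now with Cxcl2, Ccl3 and Ptgs2 (median 0.99). Cxcl2 stood at 28.8 to 111 CPM at baseline and 5.34, 381, 672 and 610.2 CPM in early 1 to 4 (2.70 ± 0.76, edgeR adjusted p = 0.0780, and 3.36 without early 1 and 2, edgeR adjusted p = 0.000221). Ccl3 stood at 2.84 to 15.2 CPM at baseline and 0.486, 33.6, 57.9 and 45.6 CPM early, the first under the floor. Cxcl1, Cxcl2 and Ccl3 were thus lower in early 1 than in any baseline library, and higher in the other 3 than in every baseline library. Ccrl2, an atypical chemerin receptor, shared the order at 9.50 to 15.4 CPM at baseline and 4.37, 115, 77.7 and 81.6 CPM early (2.51 ± 0.52, edgeR adjusted p = 0.0317, and 2.77 ± 0.16 without early 1 and 2, edgeR adjusted p = 1.32e-06). Rgs1, which limits chemokine receptor signals, stood at 14.8 to 37.6 CPM at baseline and 15.1, 166, 213 and 182 CPM early and passed only without early 1 and 2 (2.94 ± 0.55, edgeR adjusted p = 0.0237). The sum of the 21 listed NF-kB targets was 552 to 699.6 CPM at baseline and 517, 1945, 1867 and 1712 CPM in early 1 to 4.

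The stretches just upstream of Cxcl1 and Tnfaip3 are shown because both genes rose and the RefSeq table of gene starts (GRCm38.p6) held them. Each covers the 250 bases before the annotated start, on the gene's own strand, with matches to the NF-kB site in capitals, searched on both strands.
Cxcl1 (chr5:90890995-90891244, plus strand): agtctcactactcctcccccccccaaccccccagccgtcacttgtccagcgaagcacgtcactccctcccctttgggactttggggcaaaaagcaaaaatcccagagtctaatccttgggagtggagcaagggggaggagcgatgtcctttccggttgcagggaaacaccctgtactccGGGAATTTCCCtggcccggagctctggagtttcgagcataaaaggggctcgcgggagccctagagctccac
Tnfaip3 (chr10:19015411-19015660, minus strand): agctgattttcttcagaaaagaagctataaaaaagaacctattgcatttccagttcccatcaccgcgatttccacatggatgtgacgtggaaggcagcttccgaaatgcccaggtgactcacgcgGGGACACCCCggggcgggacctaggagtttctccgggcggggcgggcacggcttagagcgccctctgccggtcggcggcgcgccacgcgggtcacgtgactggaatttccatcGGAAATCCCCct
In Cxcl1 the site matches on both strands as overlapping runs, and in Tnfaip3 there are 2 separate matches. Over all 27025 genes listed there, 6.73% held a match in that window. Of the 4 NF-kB targets that rose, the 2 found in the table both held one, and of the 11 immediate-early genes that rose, 9 were found and 2 held one (Fos and Fosb). The first 2 genes were listed as NF-kB targets beforehand, so their matches are no separate result. The CArG box, the serum response element's core, was in 0 of those 9 against 1.62% of all genes. With a share this low, 9 genes are too few for this to show a lack of the box. The AP-1 site was in 0 of the 9 and in 1 of the 2 NF-kB targets (Tnfaip3), against 5.16% of all genes. The cAMP response element was in 1 of the 9 (Btg2) and 0 of the 2, against 1.77%. Bases beyond the 250 were not searched. A match describes the letters only and shows no binding.

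**Figure D4:**
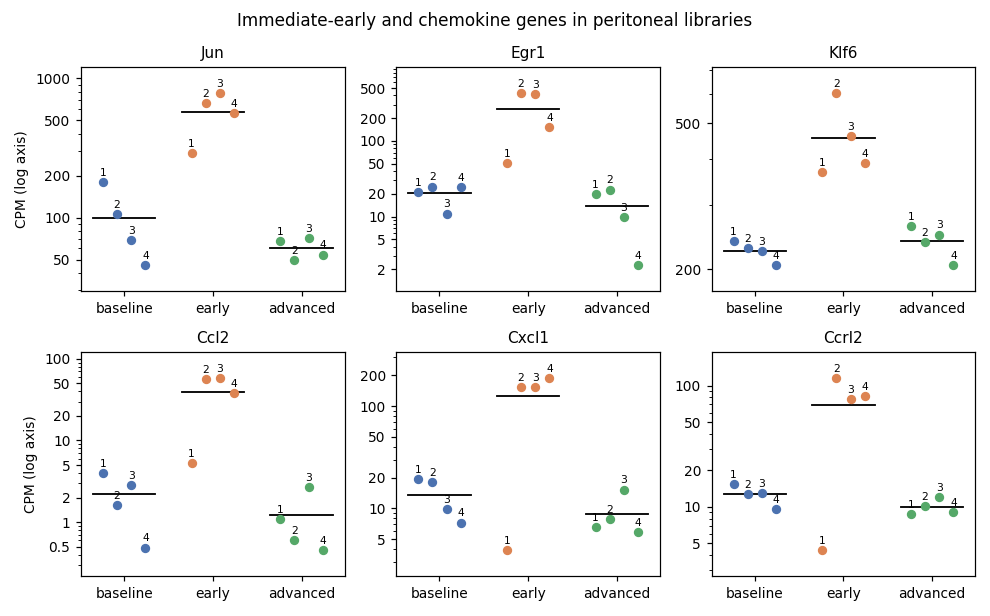
Level of 3 immediate-early genes (Jun, Egr1, Klf6) and 3 chemokine or chemokine receptor genes (Ccl2, Cxcl1, Ccrl2) in each peritoneal library, in CPM on a log axis, by stage; points are numbered by replicate and the black line is the mean of 4. Early 2, 3 and 4 lie above all baseline and advanced points in each panel, while early 1 lies below the baseline points for Cxcl1 (3.89 CPM) and Ccrl2 (4.37 CPM).

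Some transcripts of the translation machinery rose. Rplp1, a stalk protein of the ribosome, stood at 511, 517, 534 and 445 CPM at baseline and 1015, 973, 657 and 754 CPM in early 1 to 4, with no overlap and the highest values in early 1 and 2 (log2 fold change 0.79 ± 0.15, edgeR adjusted p = 0.0272). It did not pass without early 1 and 2 (0.60, edgeR adjusted p = 0.104). Of 31 ribosomal protein genes tested 5 rose (Rplp1, Rpl8, Rplp0, Rpl13 and Rpl19), and all 31 had a positive fold change with a median of 0.51. In early 3 and 4 alone, 5 others rose (Rpl3, Rpl18, Rpl23, Rps4x and Rps6) and the median was 0.45. Their sum was 9895 to 11172 CPM at baseline, 12471 to 17178 CPM early and 11311 to 14223 CPM in the advanced libraries, the latter overlapping with the early range. Ribosomal protein genes have many near-identical copies, so their counts are uncertain. Sod1, the copper-zinc superoxide dismutase, stood at 52.2, 68.3, 56.5 and 61.8 CPM at baseline, 94.7, 84.8, 88.4 and 99.1 CPM early and 87.0 to 101 CPM in the advanced libraries, all 8 above baseline. It rose by 0.65 ± 0.13 (edgeR adjusted p = 0.0281) and by 0.76 without early 1 and 2 (edgeR adjusted p = 0.0237). Among 29 oxidative phosphorylation genes Cox4i1 (0.64, edgeR adjusted p = 0.0315) and Ndufa2 (0.84, edgeR adjusted p = 0.0403) rose, and 27 did not pass. Without early 1 and 2 neither Cox4i1 (0.52, edgeR adjusted p = 0.156) nor Ndufa2 (0.54, edgeR adjusted p = 0.293) passed.

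The higher genes had a shorter median exon length than the genes tested in both fits, whereas the lower genes had a longer one with all 4 early libraries and a shorter one without early 1 and 2. The median summed exon length was 4766 bases over the genes tested, 2539 over the 127 of 131 higher genes with a length and 6073.5 over the 40 lower genes. With early 1 and 2 out it was 4740 over the genes tested, 2937 for the higher genes and 3519 for the lower ones. Rpph1, the short RNA of ribonuclease P, which carries no polyA tail in its mature form, stood at 146, 164, 163 and 396 CPM at baseline and 2357, 2702, 529 and 1122 CPM in early 1 to 4. Its log2 fold change was 2.92 ± 0.45 (edgeR adjusted p = 0.00990), and it rose in monocytes as well (2.87, edgeR adjusted p = 0.000143). The part of library making in these differences was not tested, and baseline and deeper sequencing cannot be told apart.

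No gene passed with edgeR in the lists for cholesterol synthesis and uptake under SREBP2 (22 tested, median log2 fold change -0.05), LXR targets and efflux (17, median -0.10), fatty acid synthesis (14), fatty acid oxidation and PPAR targets (16), lipid droplets (10), TREM2 foam cells (14) or lysosomes (26). Summed over these lists, some of which share genes, 24 of 119 entries had an unadjusted p under 0.05, and DESeq2 called 12 and limma-voom 2. Over all 9575 genes the same counts were 2023, 683 and 382. Abca1, the cholesterol efflux pump, stood at 293 to 579 CPM at baseline and 392, 331, 509.6 and 520.2 CPM early (0.07 ± 0.20). Plin2, which coats lipid droplets, stood at 134 to 415 CPM and then 311, 523, 467 and 451 CPM (0.60 ± 0.30). The edgeR adjusted p of Abca1 and Plin2 was 0.866 and 0.268, and both overlapped between stages. At these standard errors a change of the size seen for Plin2 was not resolved. Of 22 interferon response genes tested, Ifi27l2a rose (1.97 ± 0.41, edgeR adjusted p = 0.0334), at 13.1 to 37.3 CPM at baseline and 184, 109, 36.6 and 46.1 CPM early, and 21 did not pass. Without early 1 and 2 Ifi27l2a did not pass (0.88, edgeR adjusted p = 0.378). Lists for DNA replication (24 tested), glycolysis (21), the unfolded protein response (16) and toll-like receptors (13) had no call with edgeR, beside 0, 6, 1 and 5 genes at an unadjusted p under 0.05 and 0, 1, 0 and 2 calls with DESeq2.

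**Figure D5:**
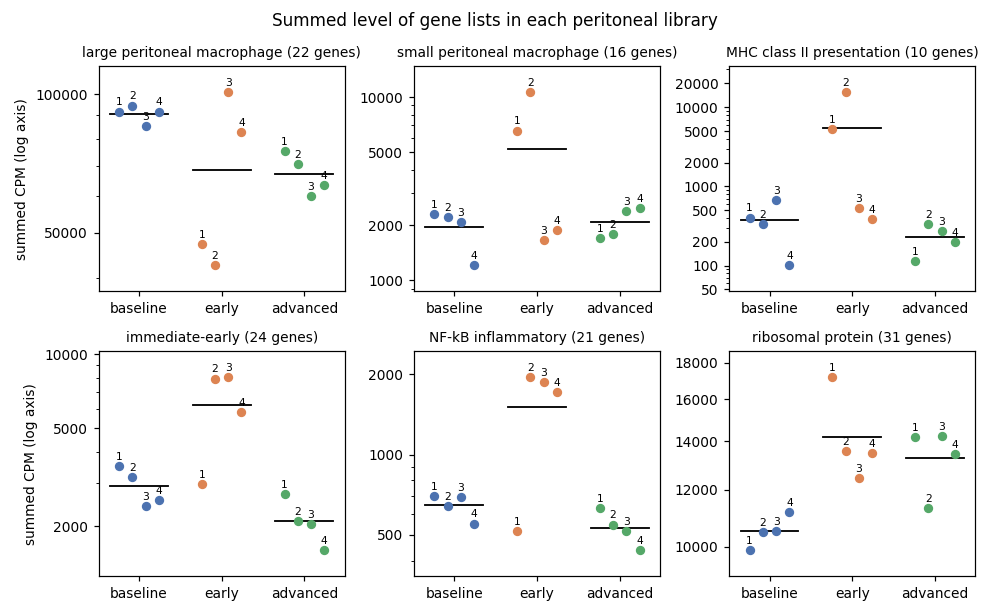
Summed level of the listed genes of 6 groups in each peritoneal library, in CPM on a log axis, by stage; points are numbered by replicate and the black line is the mean of 4. MHC class II stands at 5366 and 15448 CPM in early 1 and 2 against 533 and 386 CPM in early 3 and 4, and the immediate-early genes at 2955 CPM in early 1 against 5797 to 8058 CPM in the other 3.

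The early response was also set against that of monocytes from blood and spleen of the same stages, in a fit of 24 libraries with 4 in each of 6 groups. Of 10343 genes, 288 differed in response (2.78%), 235 with a higher log2 fold change in peritoneal macrophages (2.27%) and 53 with a lower one (0.512%). The count was 12 without early 1 and 2, with the miR-223 host in the first place by p. F630028O10Rik, the miR-223 host, was among the lower genes, with a difference of -2.18 (edgeR adjusted p = 0.000861), and -2.54 ± 0.33 without early 1 and 2 (edgeR adjusted p = 0.00122). In monocytes it stood at 90.3, 67.7, 82.9 and 129.7 CPM at baseline and 167, 138, 133 and 135 CPM early, so each early monocyte library lay above each baseline one (log2 fold change 0.60, edgeR adjusted p = 0.0819), whereas in peritoneal macrophages each early library lay below. Of 24 immediate-early genes tested, 5 responded more in peritoneal macrophages (Ier2, Junb, Nr4a1, Nr4a2 and Fosl2) and none less. Ier2 differed by 1.43 ± 0.32 (edgeR adjusted p = 0.0185). Ier2 (1.48), Ier3 (2.37) and Nr4a1 (2.90) were among the 12 without early 1 and 2, with edgeR adjusted p from 0.0375 to 0.0407. The response of Jun (0.89 ± 0.61, edgeR adjusted p = 0.517), Egr1 (2.04 ± 0.72, edgeR adjusted p = 0.136) and Klf6 (0.69 ± 0.21, edgeR adjusted p = 0.0769) was not shown to differ, and Jun also rose in monocytes (1.66, edgeR adjusted p = 0.0218). Ccr2 differed by 6.18 ± 0.95 (edgeR adjusted p = 0.00162) and H2-Ab1 by 3.85 ± 1.03 (edgeR adjusted p = 0.0443), the first of them also without early 1 and 2 (2.25 ± 0.44, edgeR adjusted p = 0.0407). Rpph1 had a difference of 0.02 ± 0.51. Marco's difference of -2.82 ± 1.18 did not pass (edgeR adjusted p = 0.231). In monocytes Marco stood at only 1.02 ± 0.912 CPM at baseline and 1.08 ± 0.613 CPM early (SD, n = 4). At so low a level the test could not show whether the responses differ.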

How the data were processed

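Peritoneal macrophages were flow sorted into lysis buffer, and their RNA was extracted with a micro column kit, converted with the Ovation SoLo system and read in paired ends on a NextSeq500 instrument, per the labels' protocols. The deposited values are counts of reads per gene for 24421 genes, 1 file per library, and the submitters' processing notes name STAR, featureCounts and mm10 without versions. Whether counting used strand is not given in the sources used here, so overlapping and antisense genes are uncertain. The members and gene lists were chosen with earlier results of these data known.

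Groups came from the sample titles. Genes were kept by filterByExpr, of 16325 with a count in a peritoneal library, and tested with edgeR 4.0.16 (R 4.3.3; TMM, quasi-likelihood, two-sided, Benjamini-Hochberg adjusted p under 0.05) in a fit of 12 peritoneal libraries with stage as the only factor. The response difference used 24 libraries. Standard errors were taken as the size of the log2 fold change divided by the root of the F statistic. CPM uses the library total, in which Rn45s took 9.40 to 17.5% at baseline and 12.8 to 16% early. Biological variation between libraries, which sets the precision beside depth, was 21.2% and 14.6% without early 1 and 2. Floors cover counting error only, since there are no molecular identifiers.

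Named genes were the 12 that rose and the 12 that fell most among passing genes whose early and baseline libraries did not overlap, whose higher group averaged at least 20 CPM and whose symbols are not predicted ones. To these were added up to 4 passing members of each list, 6 each way from the fit without early 1 and 2, 5 each way for the response, and label checks. Some were dropped from the end to keep the text short.

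Alternatives were RLE factors, no filter, DESeq2 1.42.0, limma-voom (3.58.1) with quality weights, a replicate block, thinned counts, other sets of libraries, no Rn45s, and each library left out. The steps were tested on simulated data. Sequences are RefSeq's and exon lengths GENCODE's, both for GRCm38.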

Additional observations from a re-analysis of the deposited data

Results flagged for a closer look

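In groups of 4 libraries, a library was set apart where its gap to the nearest other, as a share of the group's range, exceeded Dixon's 95% critical value. This held in 13 of 146 groups of the named genes, where chance gives about 1 in 20. Early 2 stood above the others for Fcrls (0.836 of the range), Sh2d1b1 (0.876) and Ramp1 (1.0), and below them for Timd4 (0.904). Early 1 stood above for Apoe (0.881) and S100a8 (0.905), and early 3 for Lcn2 (1.0). Baseline 4 stood below for Coro1a (0.863), Fpr1 (0.929) and Tnfsf12 (0.869) and above for Rpph1 (0.926). Baseline 3 stood below for Ccr2 (0.875), and baseline 1 above for Ear2 (1.0), on levels under the floor.

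The early response differed from that of monocytes, by the interaction test, for 12 genes that were highest in early 1 and 2: Ccr2 by 6.18 on the log2 scale, Plbd1 by 5.06, H2-Eb1 by 4.00, H2-Ab1 by 3.85, Cd74 by 3.77, Ciita by 3.60, Cd209a by 3.18, Coro1a by 2.98, Skint3 by 2.91, H2-DMb1 by 2.41, Plac8 by 2.31 and Lyz1 by 2.10. Of these 12, Ccr2 alone passed without early 1 and 2. The loss of the other calls follows from how the genes and the 2 libraries were picked and is no separate result. The integrin subunit gene Itga5 differed by 1.21 and Ier2 by 1.43. Other large fitted differences came from genes with few peritoneal counts and are no bounds: Ear2 (8.18; 4.37, 23.1, 0 and 1.06 CPM in early 1 to 4), Sh2d1b1 (6.65; 3.40, 27.4, 0 and 0 CPM), Ptgs2 (6.13; 0, 18.4, 20.6 and 10.1 CPM) and Ramp1 (5.82; 0, 19.2, 0 and 0 CPM). Lower responses were those of Lcn2 (-7.94), Sorcs2 (-5.90), S100a8 (-4.14), Prtn3 (-3.49) and Serpinb9 (-3.29). All 5 rose in monocytes, by 2.65 to 5.22 on the log2 scale. The early monocyte libraries spread widely for Sorcs2 (2.50 ± 4.06 CPM, SD, n = 4) and Serpinb9 (27.4 ± 35.7 CPM, SD, n = 4). None of the 5 passed in peritoneal macrophages in the fit of both cell types (edgeR adjusted p from 0.244 to 0.861). Lcn2 and S100a8 were not tested in the fit of peritoneal libraries alone. Lcn2, a neutrophil granule gene, stood at 1.86 to 3.53 CPM at baseline and 0, 0, 0.762 and 0 CPM early, under the floor.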

How the results depend on the processing

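The 171 genes changed between baseline and the early stage became 434 without a filter, 683 with DESeq2, 382 with limma-voom, 43 with the replicate block, 65 at equal depth, 2 in the fit of 8 libraries, 94 in that of 36 and 88 without early 1 and 2. Leaving out 1 library gave 4 (without baseline 3) to 625 (without early 3). DESeq2 called 65.6% of its genes higher, against 76.6%. The 288 response differences became 519 with DESeq2, 66 with limma-voom, 31 at equal depth, 21 in the fit of 36 libraries and 12 without early 1 and 2, and 49 (without early 2) to 526 (without early 4) with 1 library left out. They were 194 with the replicate block. RLE factors and leaving out Rn45s kept both counts within 1.5 times. The labels do not say that replicate numbers pair libraries, so they are not taken as pairs. Deviations from the stage mean correlated at -0.128 to 0.089 between same-numbered baseline and early libraries. With 4 libraries a stage and early 1 and 2 apart from early 3 and 4, this cannot exclude pairing. The genes passing with 8 libraries were Marco and F630028O10Rik. Without baseline 3 these passed with Klf6 (1.04, edgeR adjusted p = 0.0454) and Ccnl1 (1.19, edgeR adjusted p = 0.0454), the latter named after its values were seen. Of 49 named genes that passed, Marco and Klf6 did so with every library left out in turn, and none did in every other alternative. At equal depth, 25 either passed or were not tested, and Fcrls, Ccl2, Cd2 and Ciita were among those not tested. F630028O10Rik passed in all 18 alternatives (adjusted p from 7.90e-11 to 0.0497). No named gene reversed. The shallow early libraries limit genes under about 2.29 CPM there.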

Other observations

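Early 1 and 2 differed from each other too. Il1b, the cytokine interleukin 1 beta, stood at 46.9 CPM in early 2, 0 in early 1, and 0.762 and 1.06 CPM in early 3 and 4, beside 0 to 0.423 CPM at baseline. Egr2 stood at 68.0 CPM in early 2 against 4.37, 11.4 and 6.36 CPM in the other 3. Ccl6 was high in both, at 2444 and 2884 CPM in early 1 and 2, against 608 and 781 CPM in early 3 and 4 and 686 to 1086 CPM at baseline.

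Early 3 and 4, which were nearest to baseline, still differed from it for 2 genes of innate recognition that did not pass with all 4. C3, the central complement component, stood at 422 to 493 CPM at baseline and 269 and 216 CPM in early 3 and 4 (log2 fold change -0.84 without early 1 and 2, edgeR adjusted p = 0.0142). Cd14, the co-receptor for lipopolysaccharide, stood at 208 to 264 CPM at baseline and 408 and 358 CPM in early 3 and 4 (0.81 without early 1 and 2, edgeR adjusted p = 0.00422). Ccl7, a further ligand of CCR2, stood at 0.432 to 1.19 CPM at baseline and 0, 16.4, 19.8 and 18.5 CPM in early 1 to 4 (4.47 without early 1 and 2, edgeR adjusted p = 0.000144). These 3 were chosen after their values were seen.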
